A study of Drosophila melanogaster with 4 samples.

Results

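The env-carrying gypsy-group retrotransposons are a set of long terminal repeat (LTR) elements of the Drosophila genome, and 10 of them were followed here: gypsy, springer, gtwin, rover, Quasimodo, FBgn0000004_17.6, FBgn0000005_297, Idefix, ZAM and Tirant. The names that start with FBgn are row names of the table, kept whole because the family names at their ends are bare numbers. The families were taken by name from the 126 transposon family rows of a table of 34705 rows, 1 row per family. The libraries came from ovaries of adult Drosophila melanogaster. 2 were Nup358GLKD (germline knockdown of the nucleoporin gene Nup358) and 2 were Control (the cross written mat>Luc). Each was made from 10 to 15 pairs of ovaries and enriched for poly(A) RNA. By their labels the libraries are biological repeats, and neither the flies' age or strain nor the driver is described further, so the p-values reflect the spread among these 4 libraries, which may be partly technical. By its title, the series asks how Nup358 contributes to transposon silencing and piRNA production.

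As background, these elements resemble retroviruses. Besides gag and pol, which encode the particle and the enzymes that copy RNA into DNA, they carry an env gene, the counterpart of a viral envelope gene. Several of them, gypsy, ZAM and Idefix among them, are known for expression in the somatic follicle cells that surround the germline, where the protein Piwi silences them with piRNAs from flamenco (flam), a locus on the X chromosome filled with old transposon fragments. A germline driver does not reach these somatic cells, and whole ovaries hold both.

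The libraries were of like depth, 58876800 and 60707552 expected counts in Nup358GLKD replicates 1 and 2 and 60792292 and 59410221 in Control replicates 1 and 2. Nup358 itself, the targeted gene, had 282.7 and 151.3 depth-scaled counts (CPM) in Nup358GLKD, against 662.2 and 624.3 CPM in Control (log2 change −1.57, SE 0.34). Replicates 1 and 2 of Nup358GLKD thus held 44.0% and 23.5% of the Control mean. The change of Nup358 lay just outside the threshold used throughout, a Benjamini-Hochberg adjusted p under 0.05 from the quasi-likelihood F-test of edgeR (for Nup358 0.0524). Over the alternative fits of all 4 libraries its adjusted p ran from 0.000181 (DESeq2) to 0.0751 (edgeR, mean of at least 5 CPM). One library stood apart in its cell markers: 8 muscle sheath genes summed to 1468 CPM in Nup358GLKD replicate 1 and 307 CPM in replicate 2, against 323 and 256 CPM in Control. In the same library 6 eggshell genes, set apart from 17 follicle cell markers after their values were seen, summed to 3416 CPM. They summed to 10086 CPM in replicate 2, against 9729 and 9976 CPM in Control. Follicle cell markers as a whole were split, with 10 of the 17 higher and 7 lower in replicate 1 than in replicate 2. Fold changes of the families and of fs(1)Yb are therefore given also without Nup358GLKD replicate 1 where they move with it. A fit that leaves out a library has 1 library in that group and takes the spread between replicates from the other group alone, so its p-values are no support for a call and its log2 changes are given as descriptions.

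The families differ in how many copies the genome holds. In the Ensembl 115 annotation of assembly BDGP6.54, 286 copies carry the names of the 10 families, and 141 of them are at least 5 kb long. The FBgn0000005_297 family has 89 annotated copies, of which 43 are at least 5 kb long. Quasimodo has 41 (22 at least 5 kb), FBgn0000004_17.6 has 29 (22), Tirant 25 (19), gypsy 22 (7), springer 22 (7), Idefix 20 (7), gtwin 20 (3), rover 13 (10) and ZAM 5 (1). Of the 286 copies, 105 (36.7%) lie in introns of protein-coding genes and 170 lie outside such genes. These copies describe the reference genome and not the flies that were sequenced, whose strain is not described. Reads were aligned to the older build dm3.

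Copies inside flam were looked for in the same annotation, where the flam transcript unit spans 159 kb of the X chromosome. It contains 47 annotated transposon copies, of which 37 (78.7%) lie antisense to flam. Of these 47 copies 7 belong to 6 of the 10 families: springer has 2, and gypsy, ZAM, Idefix, gtwin and Quasimodo have 1 each. All 7 lie antisense to flam. For Tirant, FBgn0000005_297, FBgn0000004_17.6 and rover the annotation places no copy within flam.

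RNA of springer, gypsy and rover was 7.98- to 10.7-fold more abundant in Nup358GLKD ovaries, while for the other 6 families with counts the change did not pass the test. Of the 10 families 9 passed the filter on low counts and were tested. Among these 3 rose, none fell and 6 did not pass, where 9.59% of all 10191 tested features rose and 9.03% fell. No member with a negative change had an unadjusted p under 0.05 in edgeR, and DESeq2 and limma-voom called none lower either. Both Nup358GLKD libraries lay above both Control libraries for 7 of the 9 families (77.8%), against 79.8% of the other tested transposon families and 37.9% of all tested features, and below them for 1 family (ZAM), against 39.8%. The median log2 change of the 9 was 0.45, beside 0.01 over all tested features.

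**Figure D1:**
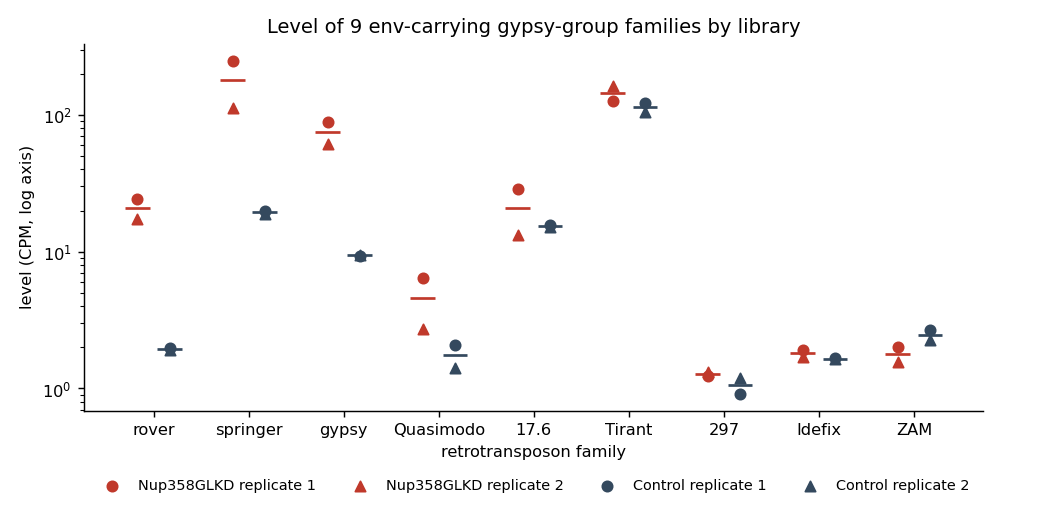
Level of the 9 families with counts (CPM, log axis) in 2 Nup358GLKD libraries (red) and 2 Control libraries (dark), with circles for replicate 1, triangles for replicate 2 and bars for group means. For rover, springer and gypsy both Nup358GLKD points stand far above the Control points, which nearly coincide, whereas the points of FBgn0000004_17.6 overlap.

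The gypsy element gave the group its name and is known for an insulator sequence bound by the protein Su(Hw). It had 88.6 and 61.6 CPM in Nup358GLKD replicates 1 and 2, against 9.30 and 9.53 CPM in Control. The groups were far apart, and the replicates of Control differed by less than those of Nup358GLKD. The means were 75.1 ± 19.1 CPM in Nup358GLKD and 9.41 ± 0.164 CPM in Control (SD, n = 2 each), a 7.98-fold higher level (log2 change 2.996, SE 0.23, adjusted p = 0.0277). The 95% interval of the log2 change was 2.34 to 3.65. Behind these levels stood 4929 and 3710 expected counts in Nup358GLKD, against 583 and 586 in Control.

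The springer family, an LTR element with an env reading frame, differed most between the knockdown replicates among the 3 that rose. It had 249 and 112 CPM in Nup358GLKD replicates 1 and 2, against 20.0 and 19.0 CPM in Control. Both knockdown libraries were high, but replicate 1 held 2.23 times the level of replicate 2. The means were 180.4 ± 97.2 CPM in Nup358GLKD and 19.5 ± 0.703 CPM in Control (SD, n = 2 each), a 9.25-fold higher level, with a log2 change of 3.21 (SE 0.46, adjusted p = 0.033). Against the Control mean the rise was 12.8-fold in replicate 1 and 5.73-fold in replicate 2. The log2 change was 2.52 without replicate 1, the library with the high muscle markers, and 3.65 without replicate 2.

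The rover family had the largest fitted change of the 9 tested members. It had 24.1 and 17.4 CPM in Nup358GLKD, against 1.99 and 1.92 CPM in Control. Its groups too were far apart, with 1342 and 1050 expected counts in Nup358GLKD against 124 and 118 in Control. The means were 20.8 ± 4.72 CPM in Nup358GLKD and 1.95 ± 0.0482 CPM in Control (SD, n = 2 each), a 10.7-fold higher level, with a log2 change of 3.41 (SE 0.25, adjusted p = 0.0273). Its 95% interval was 2.71 to 4.12 on the log2 scale. Without Nup358GLKD replicate 1 the log2 change was 3.16 for rover and 2.71 for gypsy.

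Quasimodo, another env-carrying LTR family, had 6.39 and 2.74 CPM in Nup358GLKD, against 2.10 and 1.42 CPM in Control. The groups did not overlap, yet the knockdown replicates differed 2.33-fold. The log2 change of 1.37 (SE 0.53) did not pass (adjusted p = 0.126), and its 95% interval of −0.11 to 2.86 reached from a slight decrease to a 7.25-fold rise. The log2 change was 0.63 without Nup358GLKD replicate 1 and 1.83 without replicate 2, so its size rested on which of them was kept.

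The families FBgn0000004_17.6 and FBgn0000005_297 are close relatives of each other, so the division of reads between them by RSEM bears on both. FBgn0000004_17.6 had 28.6 and 13.2 CPM in Nup358GLKD, against 15.6 and 15.1 CPM in Control. Replicate 1 lay above Control and replicate 2 below it, so the groups overlapped (log2 change 0.45, SE 0.41, adjusted p = 0.429). Without replicate 1 the log2 change turned to −0.22, and without replicate 2 it was 0.87. FBgn0000005_297, the family with the most annotated copies, had 1.23 and 1.32 CPM in Nup358GLKD, against 0.912 and 1.19 CPM in Control. Each of these levels rests on 57 to 80 expected counts, and the log2 change of 0.28 (95% interval −0.55 to 1.12) did not pass (adjusted p = 0.488).

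ZAM and Idefix were both found as mobile elements in the same fly line, and ZAM is known for making particles in follicle cells next to the oocyte. ZAM had 2.02 and 1.57 CPM in Nup358GLKD, against 2.68 and 2.28 CPM in Control. It was the only tested member with a negative change, and its groups did not overlap (log2 change −0.47, 95% interval −1.25 to 0.32, adjusted p = 0.257). Idefix had 1.93 and 1.70 CPM in Nup358GLKD, against 1.66 and 1.64 CPM in Control. The Idefix change of 0.13 on the log2 scale did not pass (95% interval −0.59 to 0.85, adjusted p = 0.71), and the upper bound of that interval is a 1.81-fold rise.

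Tirant, a relative of ZAM that entered Drosophila melanogaster recently, had the highest Control level of the set per length. It had 127 and 163 CPM in Nup358GLKD, against 122 and 104 CPM in Control. The knockdown libraries were slightly the higher, and the lowest knockdown value was close to the highest Control value. The means were 145 ± 25.8 CPM in Nup358GLKD and 113 ± 12.6 CPM in Control (SD, n = 2 each), with a log2 change of 0.36 (95% interval −0.14 to 0.86) that did not pass (adjusted p = 0.193). The interval's upper bound is a 1.81-fold rise, below the lower bounds of gypsy, springer and rover (5.07-, 3.83- and 6.55-fold). The log2 change of Tirant was 0.53 without Nup358GLKD replicate 1 and 0.13 without replicate 2. Of the 9 families with counts it was the 1 whose deposited values are whole numbers in all libraries, whereas the others carry fractions, the mark of reads that RSEM divided between sequences.

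The gtwin family, named as a relative of gypsy, is listed at 0 in all 4 libraries. A count of 0 allows up to 3 counts, which is 0.0479 to 0.0539 CPM in these libraries and covers counting error only. It does not cover gtwin reads that RSEM may have assigned to gypsy, which was not tested. The annotation holds 2 gtwin copies of 5 to 9 kb with a median length of 7411 bases, so a long copy exists in the reference genome. With no counts, gtwin could not be tested and has no fold change.

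**Figure D2:**
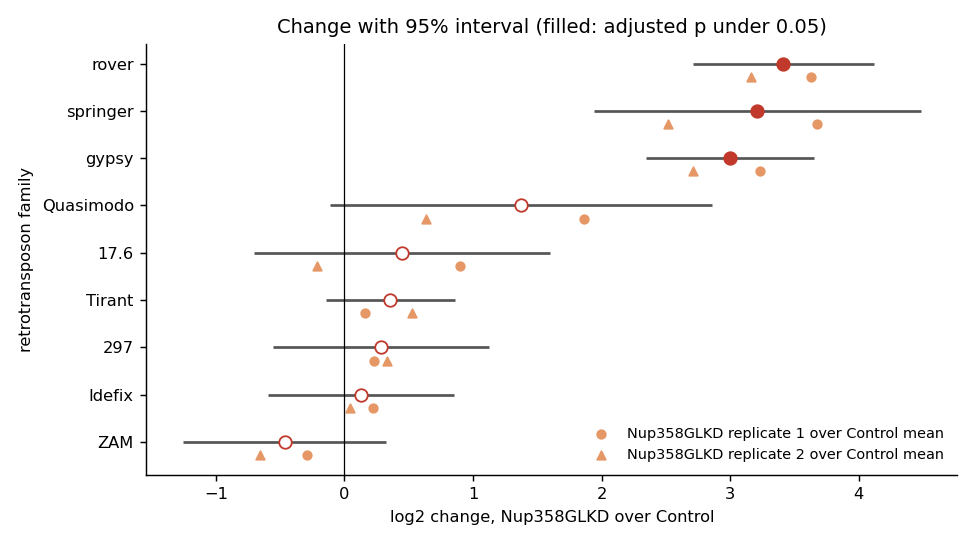
Log2 change, Nup358GLKD over Control, of the 9 tested families with its 95% interval (filled circles passed an adjusted p under 0.05 in edgeR), and below each the log2 ratio of each Nup358GLKD replicate to the Control mean. The intervals of rover, springer and gypsy start at 2.71, 1.94 and 2.34, and those of the other 6 families include 0.

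Together the 10 families had 529 and 375 CPM in Nup358GLKD replicates 1 and 2, against 176 and 157 CPM in Control. Means were 452 ± 109 CPM in Nup358GLKD and 166 ± 14.1 CPM in Control (SD, n = 2 each), a ratio of 2.71. For the 116 other transposon rows together the same ratio was 2.45, so that the 10 families held 15.5% and 10.6% of transposon RNA in Nup358GLKD and 12.4% and 11.4% in Control. These shares overlap between the groups.

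The make-up of the sum differed more than its share. Tirant held 24.0% and 43.6% of the summed counts in Nup358GLKD, against 69.3% and 66.7% in Control. The share of gypsy, springer and rover together was 68.4% and 50.9% in Nup358GLKD, against 17.7% and 19.5% in Control. These 3 were set apart because they passed the test in these same data. Their larger share and the lower ratio of the rest therefore follow from that choice and only describe the sum. Without these 3, the remaining families summed to 175 ± 12.0 CPM in Nup358GLKD and 136 ± 13.5 CPM in Control (SD, n = 2 each), a ratio of 1.29. Shares of gypsy were almost equal in the knockdown replicates (16.8% and 16.5%, against 5.27% and 6.09% in Control), as were those of rover (4.56% and 4.66%, against 1.13% and 1.23%). That of springer was not (47.1% and 29.8%, against 11.3% and 12.1% in Control).

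**Figure D3:**
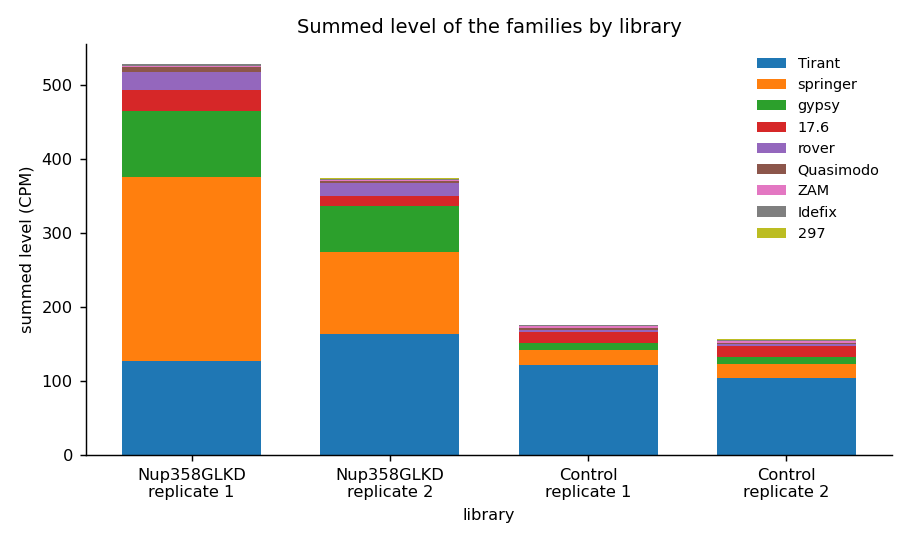
Summed level (CPM) of the families in each library, stacked by family. Tirant (bottom) has a like height in all 4 libraries, between 104 and 163 CPM, and the added height of the Nup358GLKD bars is mostly springer and gypsy.

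To order levels across families they were divided by length, taken as the median length of annotated copies of 5 to 9 kb, since the sources used here do not name the sequences to which reads were aligned. In Nup358GLKD the order of mean levels in CPM per kb was springer (24.0), Tirant (17.2), gypsy (10.1), rover (2.80), FBgn0000004_17.6 (2.80), Quasimodo (0.619), Idefix (0.245), ZAM (0.213) and FBgn0000005_297 (0.183). In Control it was Tirant (13.5), springer (2.60), FBgn0000004_17.6 (2.05), gypsy (1.26), ZAM (0.294), rover (0.263), Quasimodo (0.239), Idefix (0.222) and FBgn0000005_297 (0.151). In the knockdown springer and Tirant did not differ beyond their spread, with 33.2 and 14.9 CPM per kb for springer beside 15.1 and 19.4 for Tirant. Nor did rover and FBgn0000004_17.6, Idefix and ZAM, or ZAM and FBgn0000005_297. Among the Control levels the 4 highest were separated in both libraries, while ZAM, rover, Quasimodo and Idefix lay within 0.193 to 0.318 CPM per kb and their ranges overlapped in part.

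Of the 9 families, 7 had a higher level in Nup358GLKD replicate 1 than in replicate 2, and for springer, FBgn0000004_17.6 and Quasimodo the gap was more than 2-fold (log2 gaps of 1.16, 1.11 and 1.22). The gaps of gypsy and rover were 0.52 and 0.47, and Tirant and FBgn0000005_297 were lower in replicate 1 (−0.37 and −0.10). Between the Control replicates the widest gap was 0.56, that of Quasimodo. Wide gaps were not particular to these families. Over all tested features the SD of the log2 gap was 0.899 between Nup358GLKD replicates and 0.476 between Control replicates. Markers of ovarian cell types moved between the knockdown replicates too. The 17 follicle cell markers summed to 16729 and 20092 CPM in Nup358GLKD, against 18484 and 17809 CPM in Control. This sum joins genes with opposite gaps between the knockdown replicates, since 10 were higher and 7 lower in replicate 1 than in replicate 2. The 6 eggshell genes (Vm26Aa, Vm26Ab, Vm32E, Cp36, Cp16 and yellow-g, set apart after their values were seen) were all among the 7. The other 11 markers summed to 13313 and 10006 CPM in Nup358GLKD, against 8754 and 7833 CPM in Control. Most of this sum came from the yolk protein genes Yp1 and Yp2, neither of which passed. Yp1 had 5846 and 4378 CPM in Nup358GLKD, against 3426 and 2991 CPM in Control. Yp2 had 6241 and 4546 CPM in Nup358GLKD, against 3705 and 3302 CPM in Control. Of all 17 genes 1 rose (the adhesion gene Fas3, 157 and 146 CPM in Nup358GLKD against 46.5 and 46.7 CPM in Control), 1 fell (the yolk protein gene Yp3) and 15 did not pass. The follicle cell transcription factor gene tj had 250 and 148 CPM in Nup358GLKD, against 114 and 99.6 CPM in Control (adjusted p = 0.0944). The 13 germline markers summed to 7432 and 7374 CPM in Nup358GLKD, against 5722 and 5675 CPM in Control. Among them 1 rose (orb, a translation regulator of the oocyte), none fell and 12 did not pass. Most of the gap between the sums came from orb, with 2131 and 1685 CPM in Nup358GLKD against 716 and 702 CPM in Control. The 13 markers went both ways, 7 with an upward fitted change and 6 with a downward one (median 0.11 on the log2 scale). Their best known member osk, which encodes the determinant of germ plasm, had 1714 and 2042 CPM in Nup358GLKD, against 1717 and 1760 CPM in Control. Of the 8 muscle sheath markers 8 had a positive log2 change and none passed, where 5162 of all 10191 tested features had a positive change. For 3 of the 8 both Nup358GLKD libraries lay above both Control libraries, as they did for 37.9% of all tested features. The 5 hemocyte and fat body markers summed to 45.0 and 56.7 CPM in Nup358GLKD, against 15.5 and 11.0 CPM in Control, and 2 of 4 tested rose (the storage protein gene Lsp2 and Fbp1). Among follicle cell markers 5.88% rose and 5.88% fell, and among germline markers 7.69% rose and 0% fell. Over all tested features 9.59% rose and 9.03% fell. Yp1, Yp2, Yp3, orb, Lsp2 and Fbp1 are named after their values were seen. Testis markers stayed low, at 6.23 and 6.01 CPM in Nup358GLKD, against 7.66 and 6.80 CPM in Control, with Mst84Da at 0 throughout. In bulk ovaries fewer cells of a type and less RNA per cell cannot be told apart, and the part of these markers in the changes of the families was not tested.

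**Figure D4:**
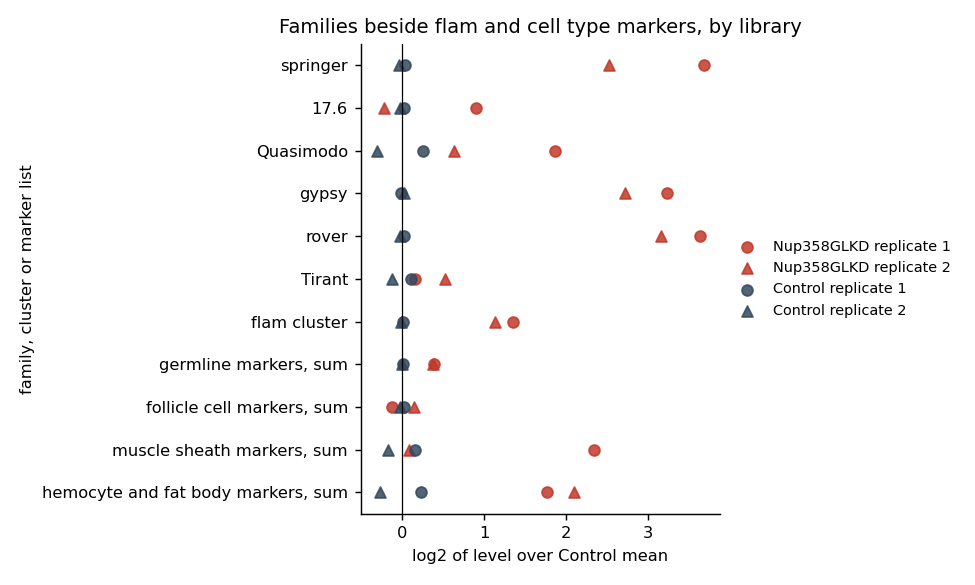
Log2 ratio of each library to the Control mean for 6 families, the flam cluster and the summed level of 4 marker lists, with Nup358GLKD in red and Control dark (circles replicate 1, triangles replicate 2). Springer, FBgn0000004_17.6, Quasimodo and the muscle sheath markers stand clearly higher in Nup358GLKD replicate 1 than in replicate 2, while gypsy, rover and flam are closer together.

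Other transposon groups were set beside these families from the same fit. In the mdg1 group, another group of LTR elements, 4 of 7 families were tested. Of these 3 rose, none fell and 1 did not pass, with a median log2 change of 1.99, which does not depend on the size of the change of blood, a family with no counts in Control. Of those that rose, FBgn0000006_412 had 73.2 and 83.1 CPM in Nup358GLKD, against 35.1 and 32.9 CPM in Control. Among 11 numbered gypsy families 4 were tested and none passed, with a median of 0.26. Their summed level was below 2 CPM in every library (1.96 and 1.57 CPM in Nup358GLKD, against 1.91 and 1.496 CPM in Control). Of 6 BEL/Pao families, LTR elements of another lineage, 2 rose, none fell and 4 did not pass, with a median of 1.31. Over all 116 other transposon families 84 were tested, 21 rose (25.0%), 2 fell and 61 did not pass, with a median log2 change of 1.11. The share of risen families among the 9 members was 33.3%. Over all tested features 9.59% rose and 9.03% fell. These groups are described by counts and medians only, and no difference between them was tested.

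**Figure D5:**
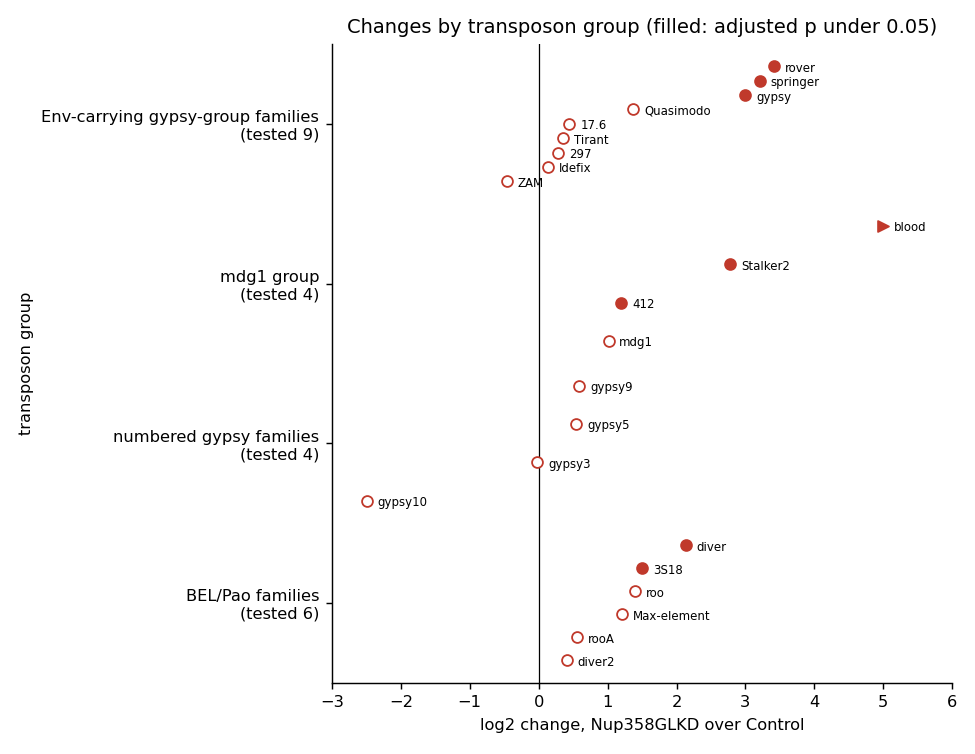
Log2 change, Nup358GLKD over Control, of the tested families in 4 transposon groups (filled circles passed an adjusted p under 0.05 in edgeR). The members fall into 3 families near or above 3 and 6 families between −0.47 and 1.37. The triangle for blood marks a value beyond the axis, since blood had no counts in Control.

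The piRNA cluster flam, the chief source of piRNAs against several of these families in follicle cells, had 35.7 and 30.6 CPM in Nup358GLKD, against 14.1 and 13.9 CPM in Control (log2 change 1.24, SE 0.15, adjusted p = 0.0288). The germline cluster 42AB had 20.9 and 16.9 CPM in Nup358GLKD, against 12.9 and 12.3 CPM in Control (log2 change 0.58, adjusted p = 0.0826). Cluster and transposon rows can share reads, since clusters are built of transposon fragments. Of the 5 tested families with a copy in flam, 2 rose (gypsy and springer) and 3 did not pass (ZAM, Idefix and Quasimodo). Of the 4 without one, 1 rose (rover) and 3 did not pass (Tirant, FBgn0000005_297 and FBgn0000004_17.6). Of the other tested transposon families 25.0% rose, and of all tested features 9.59%. With so few families the counts by flam copy only describe the set.

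Factors of the follicle cell branch of the piRNA pathway, not all of which act only there, were looked at next. Whole ovaries hold both follicle cells and germline, so a change of these genes cannot be assigned to either. Of 12 such genes, all of which were tested, 1 rose, 1 fell and 10 did not pass, where 9.59% of all tested features rose and 9.03% fell, and the median log2 change was 0.14. The gene piwi, whose protein carries the piRNAs into the nucleus, had 277 and 264 CPM in Nup358GLKD, against 228 and 231 CPM in Control (adjusted p = 0.142). The gene fs(1)Yb, whose protein makes the somatic processing body, had 15.0 and 5.53 CPM in Nup358GLKD, against 3.85 and 3.35 CPM in Control (adjusted p = 0.114). Like springer and FBgn0000004_17.6, it was higher in Nup358GLKD replicate 1 than in replicate 2, and its log2 change of 1.51 was 0.62 without replicate 1 and 2.03 without replicate 2. The helicase gene armi had 355 and 349 CPM in Nup358GLKD, against 259 and 261 CPM in Control (adjusted p = 0.0533). SoYb, a Tudor-domain relative of Yb, rose 1.88-fold (adjusted p = 0.0292). Gasz, which anchors piRNA processing at mitochondria, fell to 24.7 ± 7.72 CPM in Nup358GLKD, against 90.02 ± 4.16 CPM in Control (SD, n = 2 each, adjusted p = 0.0328).

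Among 13 genes for nuclear silencing by Piwi and for H3K9 methylation, 1 rose, 5 fell and 7 did not pass (7.69% and 38.5% of the list, against 9.59% and 9.03% of all tested features), with a median of −0.29. The 4 with the smallest p were wde, a cofactor of the H3K9 methyltransferase egg, Panx, which links Piwi to chromatin, mael, which acts below Piwi, and the histone deacetylase HDAC1. Their log2 changes were −1.15, −1.53, −1.05 and −0.79 (adjusted p = 0.0279 for the first 3 and 0.0292 for HDAC1). Among 19 factors of the germline branch, not all of which act only there, 4 rose, 3 fell and 12 did not pass. The shares that rose and fell were 21.1% and 15.8%, against the same 9.59% and 9.03%, and the median was −0.29. The 4 with the smallest p were BoYb, a Tudor-domain protein gene with a log2 change of −1.95, and spn-E, qin and Hel25E, with 0.76, 2.02 and 0.71 (adjusted p = 0.0273, 0.0309, 0.0327 and 0.0336). These lists are described by counts and medians, with no test of any list.

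The calls depended on which rows and libraries entered the fit. DESeq2 called the same 3 families (19% of all features with a value rose there), and limma-voom called 3 (10.1%). With the RefSeq transcripts left unsummed edgeR called 0 members higher and 0% of all rows, while 3 members had an unadjusted p under 0.05 and DESeq2 on the summed table called 3. Without Control replicate 1 or Control replicate 2 edgeR called 0 members and 0% of all features (3 members had an unadjusted p under 0.05 in each case). Without Nup358GLKD replicate 1 it called 4 (gypsy, springer, rover and Tirant, against 29.3% of features), and without Nup358GLKD replicate 2 it called 5 (gypsy, springer, rover, Quasimodo and FBgn0000004_17.6, against 35.7%).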

How the data were processed

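The deposited table holds expected counts made by the authors with Bowtie2, RSEM and build dm3, per the submitters' processing notes. Their versions, the annotation and the strand setting are not stated there. Sense and antisense RNA of a family therefore cannot be told apart. Transcript rows were added up by gene through the RefSeq table of Release 6 (34035 of 34437 rows matched, 98.8%) and rounded. edgeR 4.0.16 (R 4.3.3) tested Nup358GLKD against Control by quasi-likelihood F-test after TMM scaling and filterByExpr at its defaults (count 10, total 15), on the whole table. CPM use TMM-scaled library sizes and are not scaled for length. SEs and 95% intervals come from the F statistic. Code was tested on simulated data. Alternatives used DESeq2 1.42.0, limma 3.58.1 and other scalings, filters and samples. All 10 members and Nup358 are named, with set pathway genes, flam, 42AB and up to 4 passing genes per pathway list. Members and lists were chosen with earlier results of these data known. Family sequences were not used here.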

Additional observations from a re-analysis of the deposited data

How the results depend on the processing

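Under the 16 alternatives (for gypsy all but the summing of close pairs, which merges it with gtwin) gypsy, springer and rover kept their direction, with log2 changes of 2.71 to 3.21, 2.52 to 3.65 and 3.16 to 3.60. The count of 3 higher families became 0 with the rows as deposited (adjusted p = 0.0546 for gypsy and rover and 0.059 for springer) and ran from 0 to 5 over the fits that leave out a library. It stayed at 3 with RLE, upper-quartile or total-count scaling, DESeq2, limma-voom, other edgeR options, other filters and close pairs summed, and the count of lower families stayed at 0 throughout. Upper-quartile factors raised the median log2 change of all features by 0.12. The median log2 change of 0.45 was 3.15 at a mean of at least 5 CPM and 1.37 with close pairs summed, both of which hold fewer families, and ran from 0.45 to 0.87 without single libraries. FBgn0000004_17.6 turned to −0.22 in one such fit (range −0.22 to 0.87). The summed ratio ran from 2.25 to 3.11 without single libraries. Replicate numbers are shared by the labels only (correlation of deviations 0.095), and with the replicate block the count of higher families was 3, with log2 changes of 2.97, 3.10 and 3.40 for gypsy, springer and rover. Counts were lowest for FBgn0000005_297, at 57 to 80 per library.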
